A study of Mus musculus with 8 samples.

Results

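The 9 clock output and modifier genes of mouse liver were examined in 8 arrays, 4 from NS-DADm livers and 4 from wild-type (WT) livers. The genes were Dbp, Tef, Hlf, Nfil3, Usp2, Bhlhe40, Bhlhe41, Csnk1d and Csnk1e, chosen by name from a list, and these 9 of 19934 measured genes each had 1 probe set that named that gene alone. In NS-DADm mice the nuclear receptor corepressors NCOR and SMRT carry mutations of the domain (DAD) that binds and activates the histone deacetylase HDAC3, and WT mice carry neither mutation. All mice were male C57Bl/6 animals aged 10 to 12 weeks, on normal chow and a cycle of 12 h light and 12 h dark. Every liver was taken at zeitgeber time 10 (ZT10), late in the light phase, so levels at a single time of day were compared and neither phase nor amplitude was measured. The labels do not say whether each array is a separate animal or in which cells the mutations are present. The p-values therefore speak of the spread among these 8 arrays, part or all of which may be technical. Values are log2 intensities of Affymetrix arrays, on which a difference of 1 is a doubling, and precision is limited by how few arrays there are.

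The circadian clock of liver is a loop in which CLOCK and BMAL1 activate genes through E-boxes and the PER and CRY proteins repress them. Dbp, Tef and Hlf encode the PAR bZIP activators, which bind D-boxes and carry the rhythm to genes of liver metabolism, and Nfil3 encodes a repressor that competes for the same sites. Nfil3 and Bmal1 itself are repressed through ROR elements by the REV-ERB receptors, which recruit NCOR and HDAC3. Bhlhe40 and Bhlhe41 encode DEC1 and DEC2, repressors that compete with CLOCK and BMAL1 for E-boxes. Usp2 encodes a rhythmic ubiquitin-specific protease that acts on clock proteins, and Csnk1d and Csnk1e encode the casein kinases that phosphorylate PER proteins and mark them for degradation.

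RefSeq promoter windows, 250 bases before and 50 after a transcription start on GRCm38.p6, were matched for 7 of the 9 genes. They were searched on both strands for the E-box CACGTG, the related CACGTT, the D-boxes TTATGTAA and TTACGTAA, and the ROR element ends TAGGTCA and TGGGTCA. The E-box is in 7.15% of all 32851 promoter windows, CACGTT in 4.68%, either D-box in 1.06% and either ROR element end in 6.45%. Among the 7 genes with a window an E-box was found at both annotated starts of Tef (127 and 138 bases before the start) and in Bhlhe41 (153 bases before it). In Nfil3 the reverse strand held TAGGTCA, read as TGACCTA in the window, beginning 12 bases before the start. A match is a run of letters and not a shown binding site. No match in a window says only that those letters are not in it, and the known E-boxes of mouse Dbp include ones inside the gene. The windows below are printed because they belong to the activator and the protease with the greatest differences (Dbp and Usp2) and to the genes with a match, whose letters are in capitals (Dbp and Usp2 have none). Each is written 5′ to 3′ on the strand of the gene, for Tef at its first start.
Dbp, chr7:45704997-45705296, + strand: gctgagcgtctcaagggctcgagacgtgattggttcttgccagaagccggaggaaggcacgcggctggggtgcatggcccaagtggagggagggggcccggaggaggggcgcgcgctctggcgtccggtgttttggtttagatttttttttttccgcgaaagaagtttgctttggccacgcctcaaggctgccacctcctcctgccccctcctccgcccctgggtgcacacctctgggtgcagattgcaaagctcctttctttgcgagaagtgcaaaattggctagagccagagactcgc
Usp2, chr9:44084670-44084969, + strand: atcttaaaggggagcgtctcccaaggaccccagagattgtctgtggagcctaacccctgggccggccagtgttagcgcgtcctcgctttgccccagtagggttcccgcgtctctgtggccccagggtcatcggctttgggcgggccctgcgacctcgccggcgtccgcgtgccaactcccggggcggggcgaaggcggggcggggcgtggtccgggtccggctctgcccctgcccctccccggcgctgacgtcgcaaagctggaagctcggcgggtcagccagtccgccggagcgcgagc
Tef, chr15:81802423-81802722, + strand: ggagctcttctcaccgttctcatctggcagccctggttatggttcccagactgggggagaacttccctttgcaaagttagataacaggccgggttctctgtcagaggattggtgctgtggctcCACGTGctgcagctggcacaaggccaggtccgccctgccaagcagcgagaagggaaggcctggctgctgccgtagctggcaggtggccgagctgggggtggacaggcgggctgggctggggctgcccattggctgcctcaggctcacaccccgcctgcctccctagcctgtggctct
Nfil3, chr13:52980990-52981289, - strand: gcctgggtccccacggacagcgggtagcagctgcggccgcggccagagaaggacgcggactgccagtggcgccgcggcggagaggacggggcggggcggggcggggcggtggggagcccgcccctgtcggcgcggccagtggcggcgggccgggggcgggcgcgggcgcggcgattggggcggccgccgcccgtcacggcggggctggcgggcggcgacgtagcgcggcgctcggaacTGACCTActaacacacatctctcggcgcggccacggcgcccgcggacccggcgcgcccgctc
Bhlhe41, chr6:145865371-145865670, - strand: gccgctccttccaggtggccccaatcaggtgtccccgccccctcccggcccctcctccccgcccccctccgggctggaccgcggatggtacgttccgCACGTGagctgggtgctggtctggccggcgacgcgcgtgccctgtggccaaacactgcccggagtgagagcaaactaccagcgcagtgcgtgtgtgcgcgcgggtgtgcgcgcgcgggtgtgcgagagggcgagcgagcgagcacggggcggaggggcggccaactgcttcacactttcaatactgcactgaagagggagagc

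The 3 PAR bZIP activators and Usp2 were lower in every NS-DADm array than in every WT array, Nfil3 was higher in 3 of 4, and the DEC repressors and both casein kinases overlapped between genotypes. None of the 9 passed limma's moderated test after Benjamini-Hochberg adjustment over all genes (threshold 0.05), which called 0.271% of all 19934 genes, 54 in number. At an unadjusted p under 0.05, 4 of the 9 were lower and 0 higher, against 5.6% of all genes lower and 3.72% higher. The 4 were Dbp, Tef, Hlf and Usp2. These 4 were also those whose groups did not overlap, a separation in the lower direction that 3.83% of all genes showed. In the higher direction 0 of the 9 were separate, against 1.8% of all genes. The difference was below 0 in 6 of the 9, against 55.7% of all genes. The median log2 difference of the 9, NS-DADm minus WT, was -0.15, beside -0.01 for all genes. In whole liver fewer cells of a type and less RNA per cell cannot be told apart.

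**Figure D1:**
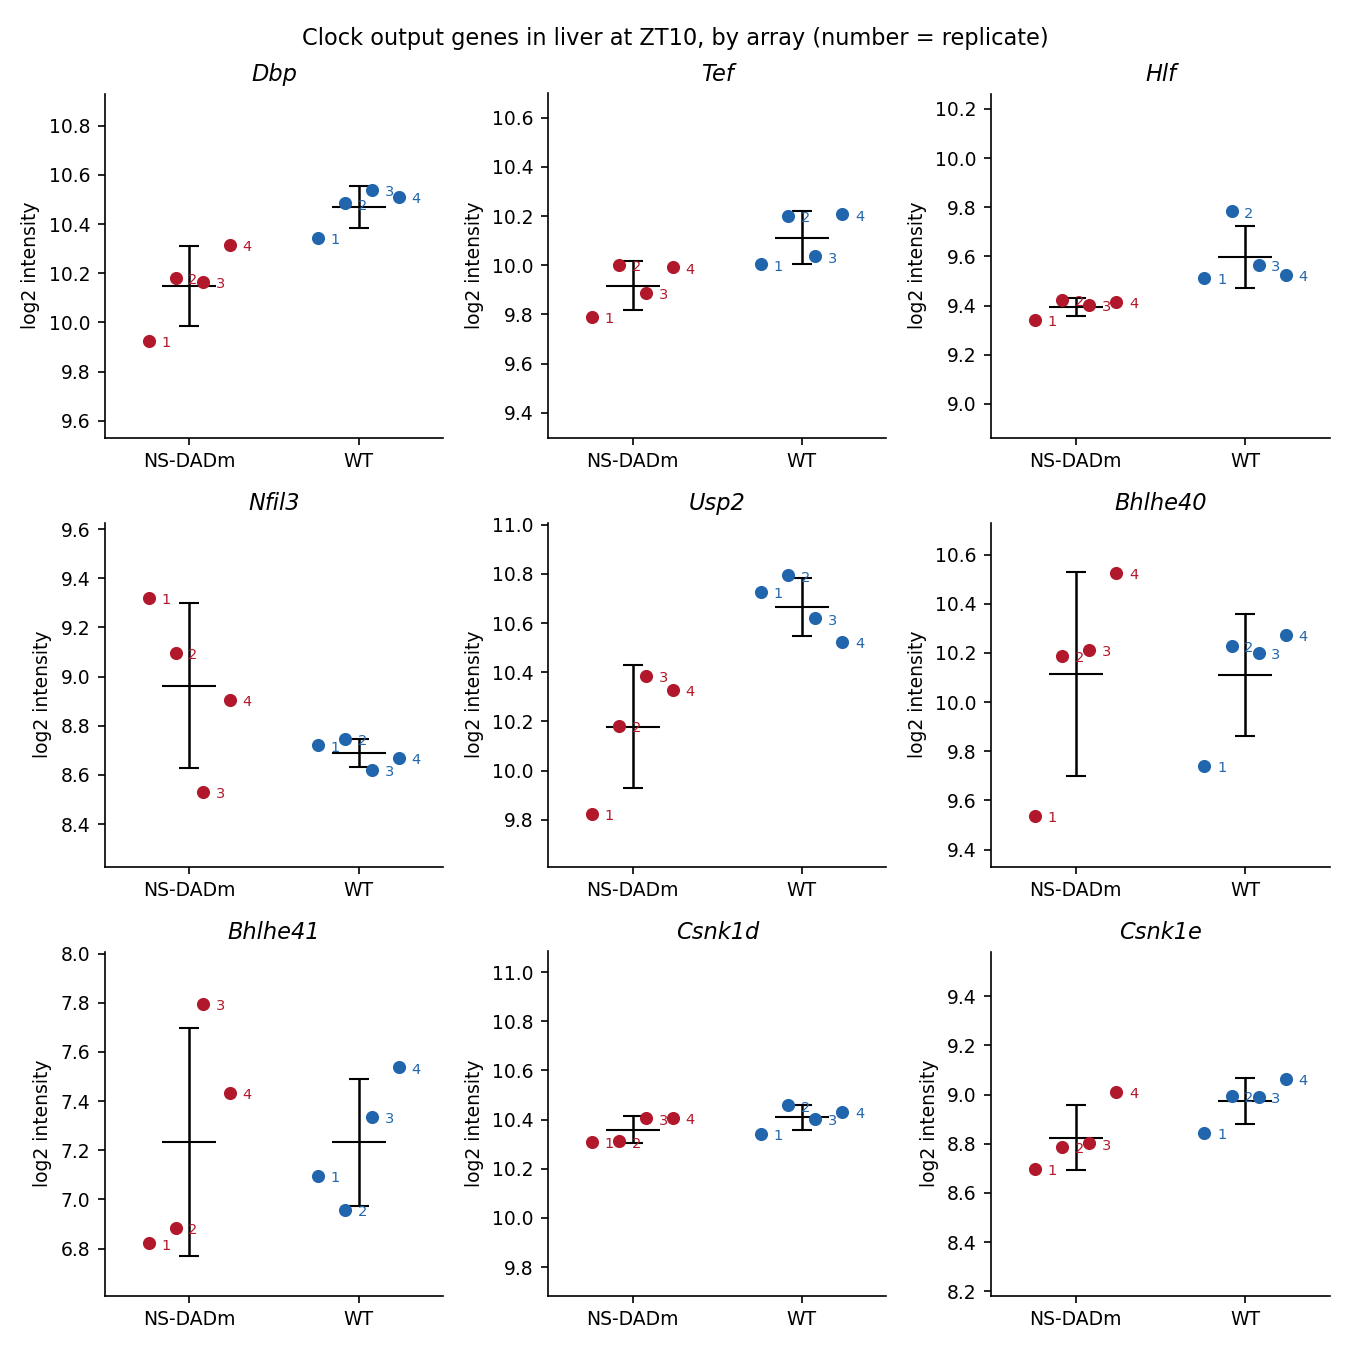
Log2 intensity (y axis, the same span in every panel) of each clock output gene in the 4 NS-DADm arrays (red, left) and the 4 WT arrays (blue, right). Numbers are replicates, and bars are mean ± SD. All red points lie below all blue points for Dbp, Tef, Hlf and Usp2, by 0.0036 to 0.14 log2 units.

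Dbp (Entrez Gene 13170), the most strongly rhythmic of the activators, was at 9.92, 10.18, 10.17 and 10.32 in NS-DADm replicates 1 to 4, against 10.34, 10.48, 10.54 and 10.51 in WT replicates 1 to 4. The groups were apart by 0.03, between NS-DADm replicate 4 and WT replicate 1, and NS-DADm replicate 1 was the lowest of all. Means were 10.15 ± 0.16 in NS-DADm and 10.47 ± 0.09 in WT livers (SD, n = 4 each), a log2 difference of -0.32 (SE 0.083, 95% confidence interval -0.51 to -0.14). On a linear scale the NS-DADm level was 80.0% of WT (interval 70.4% to 90.8%). With an adjusted p of 0.205 in limma the difference did not pass. Leaving out NS-DADm replicate 1 gave -0.25 (adjusted p = 0.406), and leaving out NS-DADm replicate 4 gave -0.38. Its adjusted p ran from 0.0789 to 0.445 over all alternatives. Only 0.983% of all genes had a lower difference.

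Tef (Entrez Gene 21685), the thyrotroph embryonic factor, was at 9.79, 10.00, 9.89 and 9.99 in NS-DADm arrays, against 10.00, 10.20, 10.04 and 10.21 in WT arrays. NS-DADm replicate 2 and WT replicate 1 were 0.0036 apart, so the separation of the groups rested on a gap far smaller than the spread within either. The log2 difference was -0.19 (SE 0.071, adjusted p = 0.402), which put the NS-DADm level at 87.4% of WT (interval 78.3% to 97.5%). The unadjusted p was no longer under 0.05 without NS-DADm replicate 1, WT replicate 2 or WT replicate 4.

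Hlf (Entrez Gene 217082), the hepatic leukemia factor, had the tightest NS-DADm group of the 9, at 9.34, 9.42, 9.40 and 9.42, against 9.51, 9.78, 9.57 and 9.52 in WT arrays. The groups were 0.09 apart, and WT replicate 2 stood above the other WT arrays. The log2 difference was -0.20 (SE 0.067, adjusted p = 0.351), or 87.0% of WT (interval 78.5% to 96.4%). Without WT replicate 2 it was -0.14 (adjusted p = 0.567).

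Nfil3 (Entrez Gene 18030), the D-box repressor, was at 9.32, 9.10, 8.53 and 8.90 in NS-DADm arrays, against 8.72, 8.75, 8.62 and 8.67 in WT arrays. NS-DADm replicates 1, 2 and 4 lay above every WT array and NS-DADm replicate 3 below every one. The 4 NS-DADm values spanned 0.79 log2 units and the 4 WT values 0.13. The log2 difference of 0.27 (SE 0.14, interval -0.02 to 0.57) did not pass (adjusted p = 0.587). It rested on single arrays, since leaving out NS-DADm replicate 1 gave 0.16 (adjusted p = 0.935) and leaving out NS-DADm replicate 3 gave 0.42 (adjusted p = 0.195). These were the highest and lowest adjusted p over all alternatives.

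Usp2 (Entrez Gene 53376) had the largest difference of the 9. It was at 9.82, 10.18, 10.38 and 10.33 in NS-DADm arrays, against 10.73, 10.79, 10.62 and 10.52 in WT arrays. The highest NS-DADm array lay 0.14 below the lowest WT array. Means were 10.18 ± 0.25 in NS-DADm and 10.67 ± 0.12 in WT livers (SD, n = 4 each), a log2 difference of -0.49 (SE 0.11, interval -0.74 to -0.23), which put the NS-DADm level at 71.4% of WT (interval 59.9% to 85.0%). The adjusted p of 0.154 did not pass, and it ran from 0.0960 (NS-DADm replicate 4 left out) to 0.418 (WT replicate 2 left out). The difference was -0.37 without NS-DADm replicate 1. Of all genes 0.311% had a lower difference.

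Bhlhe40 (Entrez Gene 20893), which encodes DEC1, was at 9.54, 10.19, 10.21 and 10.53 in NS-DADm arrays, against 9.74, 10.23, 10.20 and 10.27 in WT arrays. Replicate 1 was far below the other 3 in each genotype, and every WT value lay within the NS-DADm range, so the groups overlapped. The log2 difference was 0.00 with an interval of -0.41 to 0.42 (adjusted p = 0.999), so a level anywhere between 75.2% and 134% of WT was within the error.

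Bhlhe41 (Entrez Gene 79362), which encodes DEC2, was at 6.82, 6.89, 7.80 and 7.43 in NS-DADm arrays, against 7.10, 6.96, 7.34 and 7.54 in WT arrays. It too overlapped, and in NS-DADm livers replicates 1 and 2 were low where replicates 3 and 4 were high. The log2 difference was 0.00 (interval -0.45 to 0.45, adjusted p = 0.999). The sign of both DEC genes changed with the array left out, from -0.13 to 0.20 for Bhlhe40 and from -0.18 to 0.14 for Bhlhe41.

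Csnk1d (Entrez Gene 104318), the casein kinase 1 delta gene, was the most even of the 9 across arrays, at 10.31, 10.31, 10.40 and 10.41 in NS-DADm arrays, against 10.34, 10.46, 10.40 and 10.43 in WT arrays. The groups overlapped, and the log2 difference of -0.05 (SE 0.053, adjusted p = 0.894) had an interval that held the NS-DADm level between 89.0% and 105% of WT. Csnk1e (Entrez Gene 27373), the epsilon gene, was at 8.70, 8.79, 8.80 and 9.01 in NS-DADm arrays, against 8.85, 8.99, 8.99 and 9.07 in WT arrays. In NS-DADm arrays 3 of 4 values lay below the lowest WT array, and replicate 4 lay within the WT range. The log2 difference was -0.15 (SE 0.076, interval -0.32 to 0.02, adjusted p = 0.599), or 90.2% of WT. Without NS-DADm replicate 4 it was -0.21, and its adjusted p ran from 0.232 without that array to 0.935 without NS-DADm replicate 1.

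**Figure D2:**
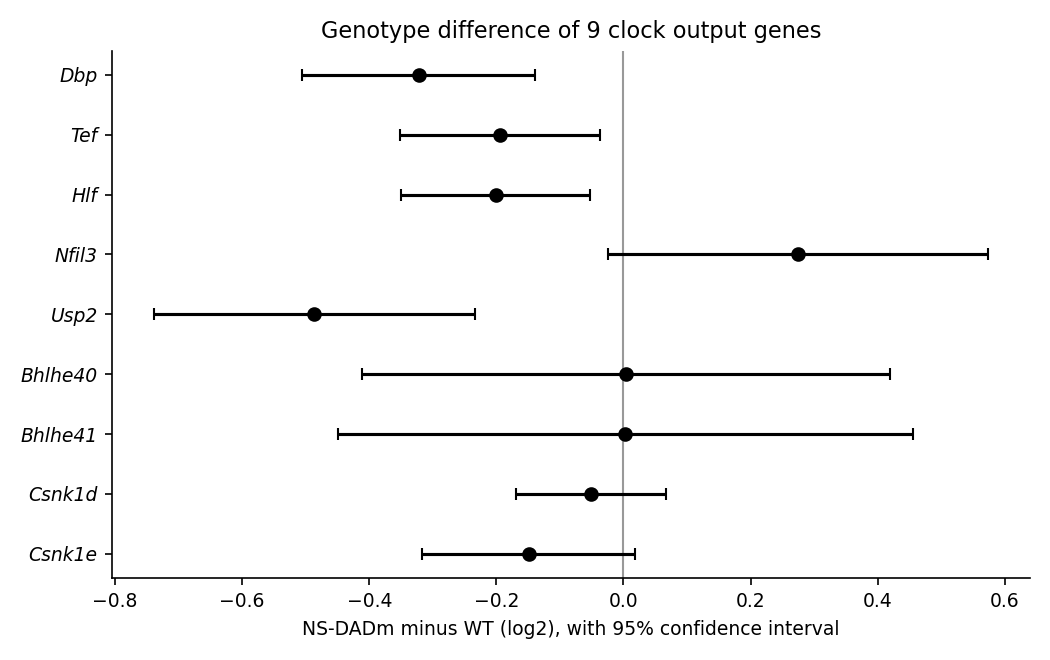
Log2 difference, NS-DADm minus WT (x axis), of each clock output gene (y axis), with its 95% confidence interval from limma (n = 4 arrays in each genotype). The intervals of Dbp, Tef, Hlf and Usp2 lie below 0 before adjustment for 19934 genes, and those of Bhlhe40 and Bhlhe41 are the widest.

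The arrays of 1 genotype differed from each other in a pattern shared by most of the 9 genes. NS-DADm replicate 1 held the lowest NS-DADm value of 8 genes and the highest of the remaining 1, Nfil3. It held the lowest NS-DADm value of 22.4% of all genes. WT replicate 1 held the lowest WT value of 6 of the 9, namely Dbp, Tef, Hlf, Bhlhe40, Csnk1d and Csnk1e, against 24.6% of all genes. Of the lists described below, the core clock loop and the other rhythmic liver genes also had their lowest mean level in replicate 1 of each genotype. The same held for sinusoidal endothelial and stellate cell markers, so it was not limited to the clock lists. Hepatocyte, Kupffer cell and lymphocyte markers were lowest in replicate 1 in NS-DADm but not in WT livers. For the core clock loop the mean level was 9.28 in NS-DADm replicate 1 and 9.45 to 9.57 in the other NS-DADm arrays. In WT it was 9.587 in replicate 1 and 9.591 in replicate 4. For the other rhythmic liver genes NS-DADm replicate 1 (11.068) was barely below replicates 2 (11.071) and 4 (11.078). The PAR bZIP targets were lowest in replicate 4 of each genotype. The labels name no batch, so no within-batch value could be had.

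**Figure D3:**
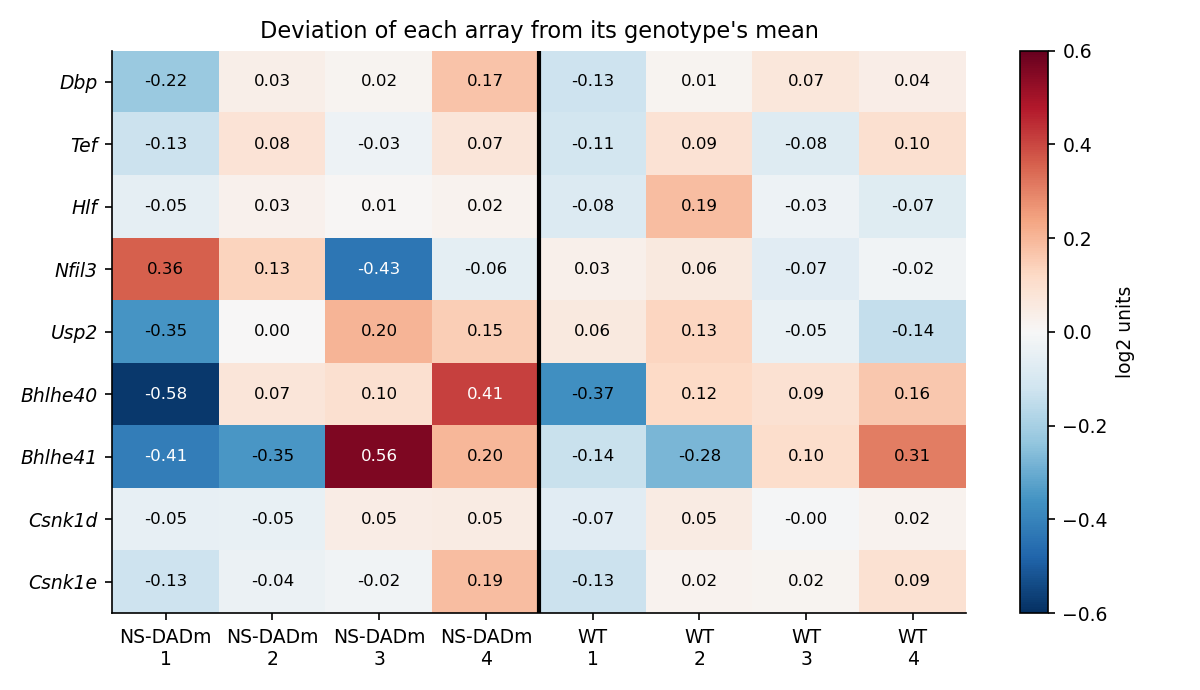
Each cell gives the deviation of 1 array (columns, NS-DADm replicates left and WT replicates right) from the mean of its genotype, in log2 units, for each clock output gene (rows). Replicate 1 of NS-DADm is below its genotype's mean for 8 genes and above it for Nfil3 (0.36), and replicate 1 of WT is at -0.37 for Bhlhe40.

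Deviations from the genotype means were compared over the 8 arrays as a description of likeness. All 8 pairs of Nfil3 with another of the 9 genes had a Pearson r below 0, down to -0.89 with Bhlhe41. Nfil3 deviated by 0.36 in NS-DADm replicate 1 and -0.43 in NS-DADm replicate 3, but by only -0.07 to 0.06 in WT arrays. Its values of r therefore rest mostly on NS-DADm arrays, and they were not recomputed with arrays left out. Of the 36 pairs 27 were above 0. The share over all pairs of genes was not computed. The gene most like Dbp among 19933 others was Bhlhe40 (r = 0.98 over 8 arrays, Spearman's rho 0.71), and Adgrf5 (0.98) and Fbxl8 (0.97) came next. With NS-DADm replicate 1 and WT replicate 1 left out, the r of Dbp and Bhlhe40 was 0.91 and rho 0.31 over 6 arrays, so their order in the other arrays was shared only in part. The genotypes overlapped in Bhlhe40 and not in Dbp. The deviations of the 2 genes were correlated but not alike in size. The SD of Bhlhe40 was 0.42 in NS-DADm and 0.25 in WT livers, against 0.16 and 0.09 for Dbp. The genes most like Nfil3 were Thbs1 (0.97), Rpia (0.96) and Olfr851 (0.96), and those most like Usp2 were Adamts13 (0.99), Psg23 (0.98) and Klhl21 (0.96). These genes are the extremes of 19933 values of r over the same 8 arrays, and the values are a description only.

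**Figure D4:**
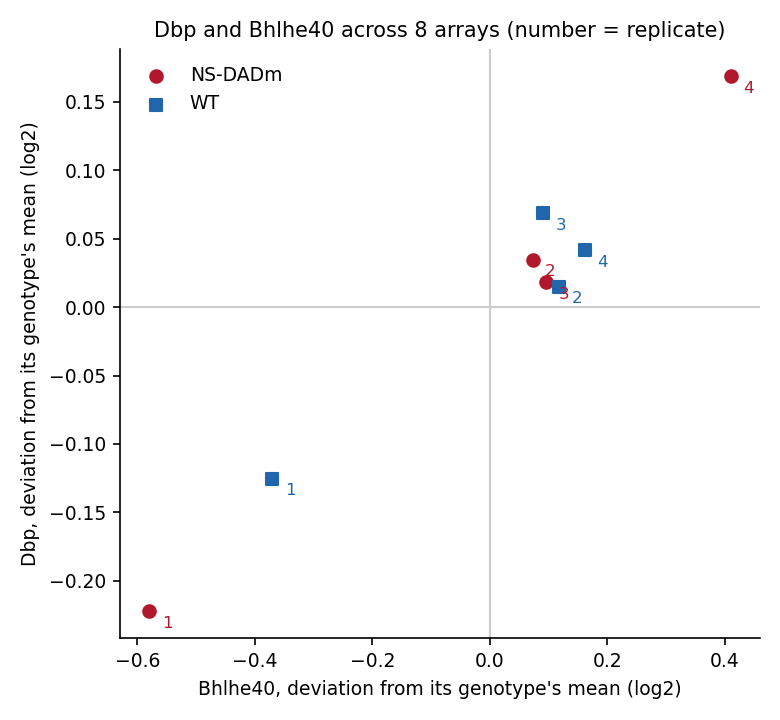
Deviation of Dbp (y axis) against that of Bhlhe40 (x axis) from the mean of their genotype, in log2 units, for 4 NS-DADm arrays (red circles) and 4 WT arrays (blue squares). Numbers are replicates. The 2 arrays numbered 1 lie at the lower left, and Pearson's r over the 8 arrays is 0.98.

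The genes around these outputs were read from lists chosen by role. The counts of this and every later list, cell type markers included, are to be read beside the shares of all genes. At an unadjusted p under 0.05 in limma, 5.6% of all genes were lower and 3.72% higher, and 55.7% had a difference below 0. In the core clock loop 1 of 11 measured genes fell, the repressor Cry2, at 9.04 ± 0.10 in NS-DADm and 9.55 ± 0.07 in WT livers (SD, n = 4 each, log2 difference -0.51, limma adjusted p = 0.0102), and 0 rose. The call of Cry2 was lost without WT replicate 2 (adjusted p = 0.0684). At an unadjusted p under 0.05, 3 were lower (Cry2, Ciart and Per1) and 2 higher. The 2 higher, named after their values were seen, were Clock (0.27, adjusted p = 0.366) and Arntl, the gene of BMAL1 (0.18, adjusted p = 0.441). Per1, also named afterwards, was at -0.38 (adjusted p = 0.313). The median of the 11 was -0.14, with 8 below 0. Ciart, a repressor of CLOCK and BMAL1, was at -0.47 (adjusted p = 0.454).

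Of 10 other rhythmic liver genes none passed the test in limma, 5 were lower and 0 higher at an unadjusted p under 0.05, and their median was -0.21. Without NS-DADm replicate 1 the median was -0.14. Rgs16, a regulator of G protein signalling, had the largest difference, 10.42 ± 0.39 in NS-DADm and 11.22 ± 0.33 in WT livers (log2 difference -0.80, adjusted p = 0.177). It passed without NS-DADm replicate 1 (-0.99, adjusted p = 0.0453), while over the other 16 alternatives it did not. Tsc22d3, a glucocorticoid-induced leucine zipper gene, was at -0.45 (adjusted p = 0.182).

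Of 7 measured target genes of the PAR bZIP factors none passed in limma, with 2 lower and 0 higher at an unadjusted p under 0.05. The median of the 7 was 0.06, with 4 above 0 and 3 below. The sign of that median depended on single arrays, from -0.01 without NS-DADm replicate 3 to 0.10 without NS-DADm replicate 4. The largest were Cyp2b10, a drug-metabolising cytochrome P450 (0.56, adjusted p = 0.576), and Cyp7a1, the rate-limiting enzyme of bile acid synthesis (0.56, adjusted p = 0.573). The 2 targets lower at an unadjusted p under 0.05, named after their values were seen, were Ppara, a fatty acid-sensing nuclear receptor (-0.22, adjusted p = 0.238, groups without overlap), and Nr1i3, which encodes the xenobiotic receptor CAR (-0.21, adjusted p = 0.365). Por, Cyp2a4 and Cyp2a5 were not analysed here. Of 12 measured kinases, ubiquitin ligases and proteases of clock proteins none passed in limma and 0 reached an unadjusted p under 0.05. The median of these 12 was -0.02 (-0.04 to 0.00 with 1 array left out, so its sign was not stable), and the largest differences were those of Btrc (-0.12), the ligase subunit that recognises phosphorylated PER, and Fbxl21 (-0.08), a CRY ligase subunit.

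**Figure D5:**
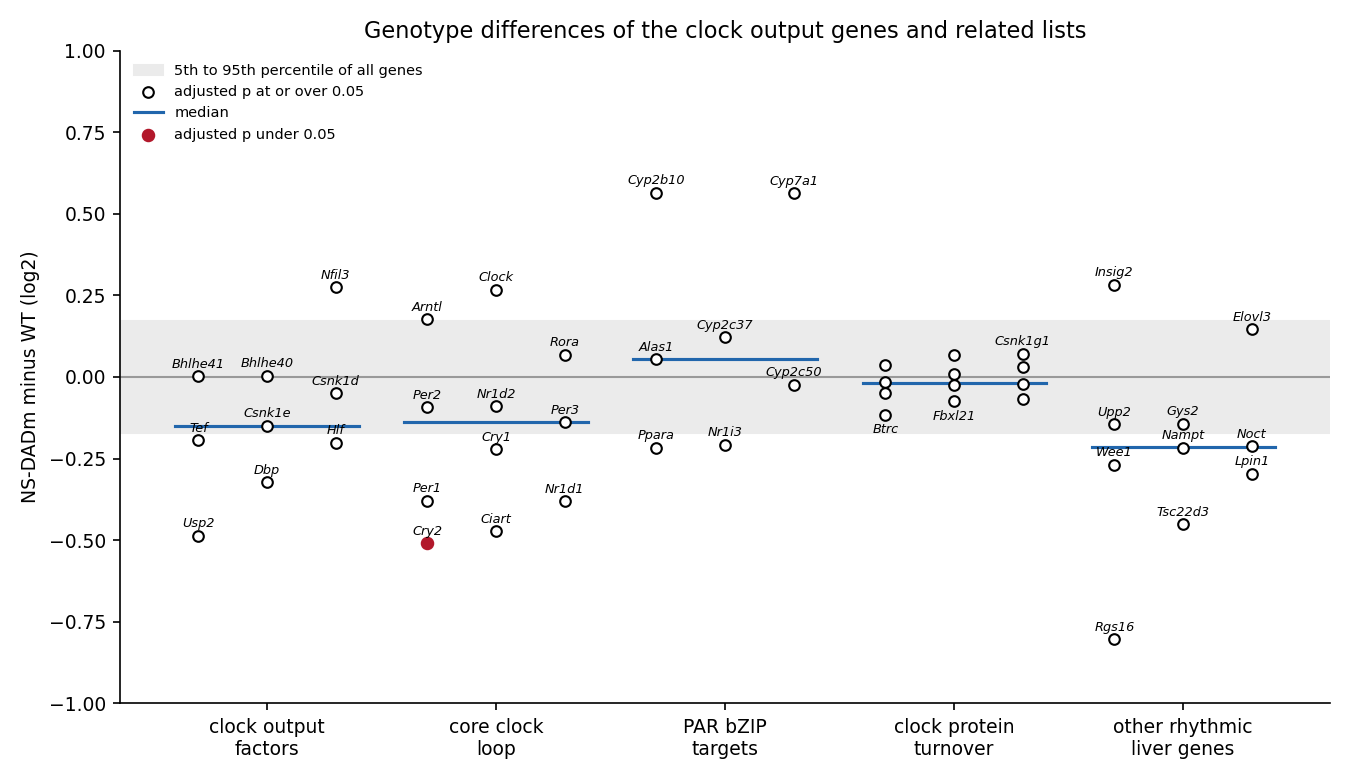
Log2 difference, NS-DADm minus WT (y axis), of each gene (circles) of the clock output factors and of 4 related lists (x axis), with the median of each list (blue line) and the 5th to 95th percentile of all genes (grey band, -0.17 to 0.17). Cry2 is the 1 filled circle, past an adjusted p of 0.05. In the clock protein turnover list 3 of 12 genes are named, and its genes lie within the band.

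Hepatocyte markers were high in all arrays, with a mean over 8 genes of 13.57 to 13.62 in NS-DADm and 13.63 in WT livers, and none passed in limma, with 1 lower at an unadjusted p under 0.05. Sinusoidal endothelial markers were below 0 in 11 of 11 genes (median -0.31), with 8 lower at an unadjusted p under 0.05, and 1 passed, Dnase1l3 (-0.59, adjusted p = 0.0233), a call that was lost without any 1 of 5 arrays (adjusted p up to 0.127). Without NS-DADm replicate 4, Gpr182 (-0.64) and Kdr (-0.40) passed too, and Clec4g passed with the replicate number as a block (adjusted p = 0.0421). Their mean level was 9.07, 9.33, 9.36 and 9.69 in NS-DADm replicates 1 to 4, against 9.58 to 9.76 in WT arrays, so NS-DADm replicate 1 was lowest here too. Their part in the differences of Dbp, Tef, Hlf and Usp2 was not tested. None of the Kupffer cell (median 0.07), stellate cell (-0.05), cholangiocyte (0.01), neutrophil (0.15) or lymphocyte (0.05) markers passed in limma, with 1 stellate gene lower and 2 neutrophil genes higher at an unadjusted p under 0.05. Differences were above 0 in 7 of 8 Kupffer cell, 6 of 6 neutrophil and 5 of 6 lymphocyte markers. They were above 0 in 3 of 7 stellate cell and 3 of 5 cholangiocyte markers. Kupffer cell markers had mean levels of 8.47, 8.78, 9.15 and 9.56 in NS-DADm arrays, against 9.07, 8.73, 8.60 and 9.20 in WT arrays. Of the erythroid markers only Alas2 was measured (-0.51, adjusted p = 0.0707), and it passed under 4 alternatives, with an adjusted p down to 0.0153. Array medians of all probe sets lay between 7.39 and 7.50, and the genotypes were taken from the labels with no check of the mutations.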

How the data were processed

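The series holds 8 Affymetrix arrays of liver RNA, 4 NS-DADm and 4 WT, grouped by sample title. Per the labels' protocols, total RNA was amplified with the Ambion WT Expression Kit and its cDNA carried a biotin label. The deposited table gives 28270 probe sets by array, taken as log2 intensities from their range (3.43 to 14.37). Per the submitters' processing notes the authors used RMA and Partek, with order, versions and settings not given in the sources used here. RMA summarises the probes of a set and compresses small differences at low intensity.

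Probe sets were named from the platform annotation, with symbols updated by Entrez Gene identifier (GRCm38.p6 table, 19852 of 19934 genes matched). Of the probe sets 21780 named 1 gene, 1617 several and 4873 none, and those naming several or none were left out. Each gene was read from its highest-mean probe set. Genotypes were compared over all genes with limma 3.58.1 (lmFit, eBayes) in R 4.3.3, two-sided, with Benjamini-Hochberg adjustment and a threshold of 0.05, after the steps were tested on simulated data. No filter or pseudocount was used. Replicate numbers occur in both genotypes. Same-numbered arrays deviated from their group means with correlations of 0.147, 0.0483, -0.102 and 0.247, and arrays of different numbers with -0.316 to 0.258. So few values neither show nor exclude a pairing. The labels do not state that the numbers pair arrays, so no block was used in the main fit. The alternatives were other probe set rules, 2 filters on low values, 2 normalizations, another variance model, array weights, the replicate block and each array left out. The members, lists and tests were chosen with earlier results of these data known. All 9 members are named, and of each list those that passed or, where fewer than 2 did, the 2 largest differences, and the 3 genes most like Dbp, Nfil3 and Usp2. Promoters are from RefSeq. Python 3.11.15, pandas 2.3.3 and matplotlib 3.10.9 made tables and figures.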

Additional observations from a re-analysis of the deposited data

Results flagged for a closer look

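Bhlhe40 in WT replicate 1, at 9.74, lay far below the other WT arrays (10.20 to 10.27), by more than a test for 1 outlier among 4 values allows. It was 1 such value in 18 groups of 4 tested, and chance gives about 1 in 20. In NS-DADm replicate 1 the gene was also the lowest of its group, at 9.54. Without WT replicate 1 the log2 difference of Bhlhe40, NS-DADm minus WT, was -0.12, against 0.00 with it. The cause was not tested.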

How the results depend on the processing

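No clock output gene passed the adjusted threshold under any of the 17 alternatives that tested it (16 for Bhlhe41, which the filter at the median level drops). Dbp, Tef, Hlf, Usp2, Csnk1d and Csnk1e stayed below 0 and Nfil3 above 0 throughout. Part of this was fixed in advance. The groups of Dbp, Tef, Hlf and Usp2 did not overlap, so leaving out 1 array could not change their sign. The probe set rules, filters, variance model and replicate block leave the difference of each of the 9 genes as it was, so they do not test its sign. Bhlhe40 and Bhlhe41 turned below 0 with array weights (-0.021 and -0.019), and with single arrays left out they ran from -0.13 to 0.20 and from -0.18 to 0.14. The count of all changed genes, 54, ran from 13 (without WT replicate 2) to 126 (without NS-DADm replicate 4) with 1 array left out, and was 31 with NS-DADm replicate 2, 35 with NS-DADm replicate 3 and 22 with WT replicate 3 left out. It was 109 with array weights and 105 with the replicate block. The block called no clock output gene and called Cyp2b10 among the PAR bZIP targets (adjusted p = 0.0387). The count of the 9 at an unadjusted p under 0.05 in limma, 4 in the main fit, ran from 3 to 6. It was 6 with the block, which added Nfil3 and Csnk1e. It was 3 (Dbp, Hlf and Usp2) without NS-DADm replicate 1, WT replicate 2 or WT replicate 4. The median of the PAR bZIP targets turned below 0 without NS-DADm replicate 3 (-0.011) and without WT replicate 4 (-0.0036). That of the core clock loop was -0.091 with array weights, against -0.14. The cause of these shifts was not tested. The table holds no detection calls, and closeness to background was not assessed.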

Other observations

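The spread between arrays was wider in NS-DADm than in WT livers for 7 of the 9 clock output genes, all but Tef and Hlf, while this held for 36.6% of all genes. The SD was 0.33 in NS-DADm and 0.06 in WT livers for Nfil3, 0.46 and 0.26 for Bhlhe41, and 0.42 and 0.25 for Bhlhe40 in the same order of groups (n = 4 each). The count rested on NS-DADm replicate 1, without which it was 4 of 9 (Nfil3, Bhlhe41, Csnk1d and Csnk1e), against 34.2% of all genes. It was 6 to 8 with any other array left out, an alternative chosen after seeing the data. The difference in spread was not tested.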
